A study of Mus musculus with 6 samples.

Results

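The Arp2/3 complex and WASP genes were followed in TER119+ erythroblasts cultured with or without cholesterol. The set holds 10 of the 17463 genes in the count table: Actr2, Actr3, Arpc1a, Arpc1b, Arpc2, Arpc3, Arpc4, Arpc5 and Arpc5l, which encode the subunits of the complex and their isoforms, and Was, which encodes its activator WASP. The genes were chosen from the levels of these same samples. The rule used the difference between cholesterol and control samples, its size in each same-numbered pair and the levels along replicate numbers. The differences of these genes are therefore given as a description with no p-value. Where a fit over all genes put any of them past a threshold, the count stands beside the share of all genes called. Nothing is read from such a count. All 10 were among the 11277 genes that passed the filter on low counts.

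The Arp2/3 complex binds the side of an existing actin filament and starts a new filament from it as a branch, which gives cells dense actin networks for protrusion, endocytosis, membrane traffic and the late steps of division. Actr2 and Actr3 encode the actin-related proteins Arp2 and Arp3, which form the first pair of subunits of the branch, and the Arpc proteins hold them in place. The complex is nearly inactive on its own and is switched on by nucleation-promoting factors, of which WASP is the form found in blood cells. Loss of WASP causes Wiskott-Aldrich syndrome, an immunodeficiency with small and few platelets, and in maturing erythroblasts actin filaments are known for their part in the expulsion of the nucleus.

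The cells were TER119-negative erythroblasts from the fetal liver of C57BL/6J mice. TER119 is an antigen on the surface of erythroid cells past the earliest stages. Cells of both groups were grown for 30 h in medium containing erythropoietin (Epo), either without cholesterol (control, n = 3) or with 40 µM cholesterol (n = 3), and those that had become TER119+ were sorted according to the methods of the study, while the sample labels do not mention a sort. The controls are untreated in the labels and vehicle-treated in a figure legend of the study, and the labels do not say what the numbers 1 to 3 stand for. A legend of the study speaks of independent experiments for the mean values of a figure that includes this RNA-seq, without naming the sequenced samples. P-values of fits without the replicate number measure the spread between these samples. With the number as a block, they measure the spread left after differences between numbers are removed. Groups that overlap can then have a small p-value.

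RNA-seq totals lay between 19826849 and 20061724 estimated counts per sample, and 3 counts corresponded to 0.148 to 0.156 CPM, the read share of a gene scaled to a common library size with TMM factors. The summed level of 12 erythroid markers, globins included, was 114314 to 150142 CPM in control and 100736 to 136282 CPM in cholesterol samples, far above the lists of other cell types. The samples also held RNA of other blood cells in unequal amounts. The summed level of 12 neutrophil granule and receptor genes, none of which was at 0, was 78.1, 281 and 759 CPM in control samples 1, 2 and 3 and 49.7, 122 and 316 CPM in cholesterol samples 1, 2 and 3. Macrophage markers, of which 11 of 12 were tested and none was at 0, summed to 21.3 to 163 CPM in control and 15.97 to 74.1 CPM in cholesterol samples. Mast cell and basophil markers summed to 3.18 to 31.9 CPM in control and 1.28 to 5.27 CPM in cholesterol samples, with Tpsb2 at 0 throughout. Number 3 of each group held the most neutrophil and macrophage RNA, and each cholesterol sample held less than the control of the same number. In such bulk samples, fewer cells of a type and less RNA per cell cannot be told apart.

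The genes lie on 6 chromosomes of the mouse build GRCm38.p6, by the RefSeq annotation. Arpc1a (chr5:145083869-145108756) and Arpc1b (chr5:145114256-145128186) are neighbours on the plus strand of chromosome 5, with 5499 bases between the end of the first and the start of the second, and Arpc3 lies on the same chromosome at chr5:122391878-122406181. Arpc2 (chr1:74236490-74268209), Arpc5 (chr1:152766542-152775580) and Actr3 (chr1:125392905-125435727, minus strand) lie on chromosome 1. Arpc4 is at chr6:113378113-113390447, Arpc5l at chr2:39008066-39015878, Actr2 at chr11:20062304-20112951 on the minus strand and Was at chrX:8081466-8090491 on the minus strand.

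RefSeq promoters, each 250 bases before to 50 bases after a transcript start in the RefSeq table, were matched for 9 of the 10 genes, and Arpc5l had no entry. The start used for Arpc2 lies inside its annotated gene and not at its first base. The 3 shown are those of the isoform pair that differed most between the groups, Arpc1a and Arpc1b, and of Was. They are written 5′ to 3′ on the strand of the gene, with matches to any of 6 motifs in capitals. The motifs, sought on both strands, were AGATAA (for GATA factors), CCGGAAG (for ETS factors), GAGGAAGT (for the ETS factor PU.1), TCACNCCAC (sterol regulatory element), TCACGTGA (E-box bound by SREBP) and CCAAT (bound by NF-Y), and no matches overlapped in these promoters. The regions are chr5:145083619-145083918 for Arpc1a, chr5:145114006-145114305 for Arpc1b and chrX:8090442-8090741, minus strand, for Was.
Arpc1a: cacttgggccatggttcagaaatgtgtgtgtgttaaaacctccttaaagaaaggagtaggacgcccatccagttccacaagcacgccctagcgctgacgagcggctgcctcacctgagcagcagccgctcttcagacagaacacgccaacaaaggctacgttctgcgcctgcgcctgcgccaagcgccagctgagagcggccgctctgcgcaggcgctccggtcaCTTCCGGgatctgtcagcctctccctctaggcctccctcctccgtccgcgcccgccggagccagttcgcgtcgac
Arpc1b: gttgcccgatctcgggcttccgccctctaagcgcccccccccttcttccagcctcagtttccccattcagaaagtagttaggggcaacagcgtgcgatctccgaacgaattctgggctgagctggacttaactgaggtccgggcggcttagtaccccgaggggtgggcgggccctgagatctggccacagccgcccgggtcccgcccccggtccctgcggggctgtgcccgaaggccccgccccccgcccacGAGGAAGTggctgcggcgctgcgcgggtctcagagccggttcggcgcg
Was: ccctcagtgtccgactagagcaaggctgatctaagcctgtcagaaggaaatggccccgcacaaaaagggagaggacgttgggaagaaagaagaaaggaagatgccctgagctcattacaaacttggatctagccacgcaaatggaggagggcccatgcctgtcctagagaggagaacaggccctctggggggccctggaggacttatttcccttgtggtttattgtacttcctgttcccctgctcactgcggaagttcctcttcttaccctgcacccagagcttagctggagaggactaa

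The Arpc1a promoter held 1 match, CCGGAAG on the reverse strand starting 25 bases before the start of the gene. Of the 9 promoters, 5 (Arpc1a, Arpc3, Arpc4, Actr2 and Actr3) held this motif, against 9.12% of 27025 mouse promoters of the same length. The motif contains a CpG, and these 5 held 21 to 34 CpG dinucleotides, against a median of 7 over all promoters. The 9.12% is therefore not a share of promoters of like composition. The Arpc1b promoter did not hold CCGGAAG. Its 1 match was GAGGAAGT, starting 2 bases after the first base of the gene, a motif found in 3.28% of all promoters and in none of the other 8. The Was promoter held no match to the 6 motifs. TCACGTGA was found in the Arpc5 promoter only (1.01% of all promoters), and CCAAT in those of Arpc5 and Actr2 (37.9%). AGATAA (11.4%) and TCACNCCAC (1.22%) were found in none of the 9. GC content was 63.0% for Arpc1a, 69.3% for Arpc1b and 53.3% for Was, with 26, 29 and 5 CpG dinucleotides, against medians of 52.7% and 7 over all promoters. A match describes the letters of a window and does not show that a factor binds there.

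Levels per transcript length were compared as FPKM, which divides the scaled count by transcript length. Arpc3, which encodes a peripheral subunit that contacts Arp3, had the highest level, with a mean of 196 FPKM over the 6 samples and a range of 178 to 213. Arpc5 and Arpc1a followed at 84.9 FPKM each, and then Arpc2 at 72.6 FPKM. The ranges of Arpc5 and Arpc1a overlapped, and their order changed between samples. Those of Arpc1a and Arpc2 also overlapped. Within samples, Arpc1a was above Arpc2 except in control sample 3 (77.43 against 79.93 FPKM), and Arpc5 was above Arpc2 in every sample. Actr3 (47.9 FPKM) lay below Arpc2 and above Arpc4 (39.3 FPKM) in every sample, whereas Arpc4, Actr2 (36.6 FPKM) and Arpc5l (33.8 FPKM) overlapped each with the next. Arpc1b (20.9 FPKM) lay below these, and Was (7.95 FPKM) was the lowest of the 10. Actr3b, a paralogue of Actr3, had at most 8 counts in a sample and a mean of 0.0983 FPKM, and it did not pass the filter.

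**Figure D1:**
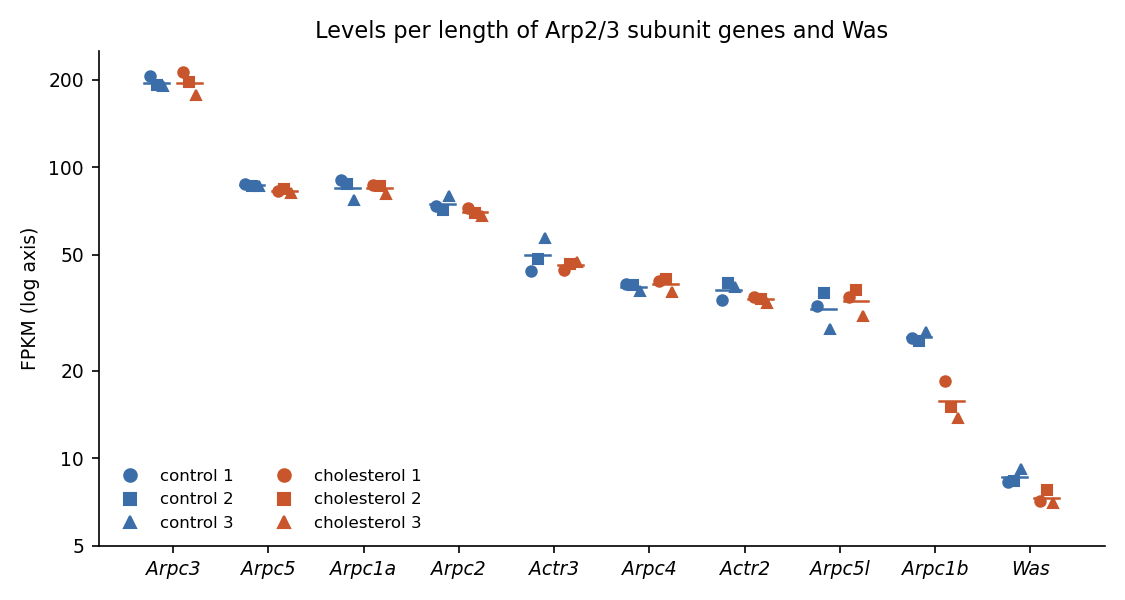
Level per transcript length of the 10 genes in FPKM on a log axis, with 1 point per sample, control in blue and cholesterol in orange, and lines at group means (n = 3). Arpc3 lies at the top with 178 to 213 FPKM and Was at the bottom with 6.99 to 9.19 FPKM, and Arpc1b is the gene whose groups are farthest apart.

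Across the whole set, 9 genes had a lower and 1 a higher mean with cholesterol, though the sign for Arpc1a, Arpc3, Arpc4 and Arpc5l turned with single samples or with the processing. The groups did not overlap for 4 genes, all lower (Arpc1b, Arpc5, Actr2 and Was), where 4.28% of all genes tested were lower without overlap, and for 0 genes in the other direction, against 3.72%. Of the 10, 6 were lower in all 3 pairs of same-numbered samples, namely Arpc1b, Arpc2, Arpc5, Actr2, Actr3 and Was, against 20.1% of all genes. These counts are in CPM. In FPKM, a comparison added after seeing the data, 3 genes (Arpc1b, Arpc5 and Was) were lower without overlap, against 2.94% of all genes, and 4 (these and Arpc2) were lower in all pairs, against 14.7%. The median log2 fold change was −0.12, against 0.01 over all genes. These counts follow from the values by which the genes were chosen. In the edgeR quasi-likelihood test without the replicate number, 0 of the 10 passed an adjusted p of 0.05, as 0.00887% of all genes did, and 2 (Arpc1b and Was) were below an unadjusted 0.05, as 2.63% of all genes were. With the replicate number as a block, 1 of 10 (Arpc1b) was called lower, where 5.20% of all genes were, and none was called higher, where 1.65% were. DESeq2 without the block also called 1 of the 10 lower, Arpc1b, where it called 0.269% of 10400 genes lower.

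**Figure D2:**
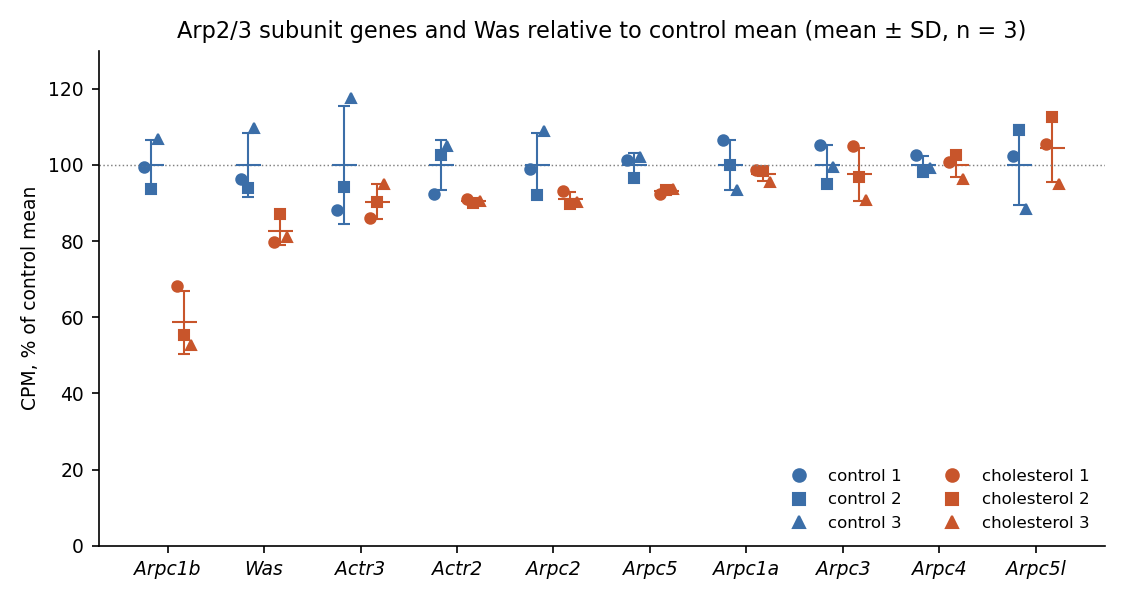
CPM of each gene as a percentage of its control mean, with 1 point per sample (control blue, cholesterol orange) and bars for mean ± SD (n = 3), ordered by log2 fold change. Arpc1b in the cholesterol samples lies below 70% of its control mean, and 9 of the 10 genes have log2 fold changes smaller in size than 0.3.

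Arpc1b encodes a WD-repeat subunit of the complex, the isoform that predominates in leukocytes and platelets, and its inherited loss causes an immunodeficiency with bleeding. Its level was 41.0, 38.7 and 44.1 CPM in control samples 1, 2 and 3 and 28.1, 22.9 and 21.7 CPM in cholesterol samples 1, 2 and 3. All 3 cholesterol samples lay below all 3 controls. The mean was 41.3 ± 2.71 CPM in control and 24.2 ± 3.42 CPM in cholesterol samples (SD, n = 3 each), a difference of −41.3% and a log2 fold change of −0.77 (SE 0.12). Within pairs 1, 2 and 3 the log2 difference was −0.54, −0.76 and −1.02. It kept its sign with each sample left out, between −0.89 and −0.69. Of all 11277 genes tested, many of them at low levels, 612 (5.43%) had a log2 fold change as low or lower. Of the 5823 genes with a mean of at least 20 CPM, 38 (0.653%) did. The cut at 20 CPM is not among the settings given for the processing, and the share depends on it. Arpc1b was chosen in part from this same difference, so nothing is read from either share.

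The other isoform, Arpc1a, is the broadly expressed form of the same subunit. It was measured at 147, 138 and 129 CPM in control samples 1, 2 and 3 and at 136, 135 and 131 CPM in cholesterol samples 1, 2 and 3. The groups overlapped, with means of 138 ± 8.90 and 134 ± 2.51 CPM (SD, n = 3 each), a log2 fold change of −0.04 (SE 0.07) and 0.01 without control sample 1. The 2 genes share a subunit position in the complex, so Arpc1b was also expressed as a share of their summed FPKM. That share was 22.3%, 22.4% and 26.0% in control samples 1, 2 and 3 and 17.5%, 14.7% and 14.5% in cholesterol samples 1, 2 and 3. The groups did not overlap, and the mean share was 7.97 percentage points apart, 23.6% ± 2.11 in control and 15.6% ± 1.68 in cholesterol samples (SD, n = 3 each). The summed level of both genes was 105 to 116 FPKM in control and 94.6 to 105 FPKM in cholesterol samples, with means of 111 ± 5.91 and 100.4 ± 5.36 FPKM (SD, n = 3 each).

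Arpc5 and Arpc5l encode alternative forms of the smallest subunit of the complex. Arpc5 was measured at 171, 163 and 173 CPM in control samples 1, 2 and 3 and at 156, 158 and 158 CPM in cholesterol samples 1, 2 and 3. The groups did not overlap, but the difference was small, with a log2 fold change of −0.10 (SE 0.05). Arpc5l was measured at 44.2, 47.2 and 38.2 CPM in control samples 1, 2 and 3 and at 45.6, 48.7 and 41.0 CPM in cholesterol samples 1, 2 and 3. It was the 1 gene of the 10 with a higher mean with cholesterol, and it was higher in each pair, yet the groups overlapped, and the log2 fold change of 0.06 (SE 0.11) became −0.02 without control sample 3. The share of Arpc5l in the summed FPKM of both was 27.3% ± 2.82 in control and 29.5% ± 1.91 in cholesterol samples (SD, n = 3 each), with overlapping groups.

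**Figure D3:**
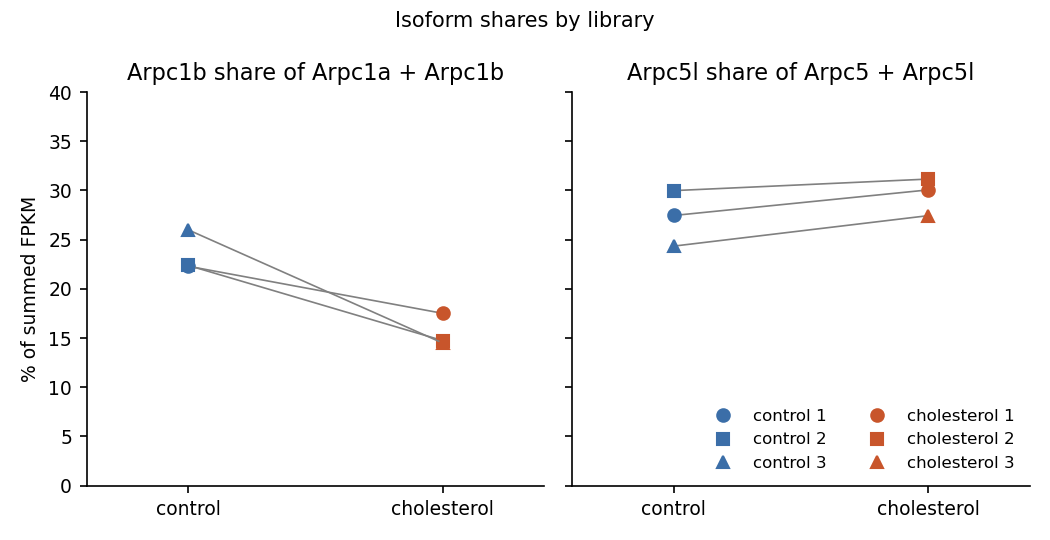
Share of Arpc1b in the summed FPKM of Arpc1a and Arpc1b (left) and of Arpc5l in that of Arpc5 and Arpc5l (right), in percent, with 1 point per sample and lines joining same-numbered samples. The Arpc1b share is 22.3% to 26.0% in control and 14.5% to 17.5% in cholesterol samples, while the Arpc5l share overlaps between the groups.

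The actin-related subunits themselves differed little. Actr2 was measured at 133, 148 and 151 CPM in control samples 1, 2 and 3 and at 131, 129.7 and 130.4 CPM in cholesterol samples 1, 2 and 3. The groups did not overlap, although control sample 1 was within 2 CPM of the nearest cholesterol sample, and the log2 fold change was −0.14 (SE 0.07). In FPKM the groups overlapped, and pair 1 was lower in control (35.03 against 35.83 FPKM). Actr3 was measured at 117, 125 and 157 CPM in control samples 1, 2 and 3 and at 114, 120.1 and 126 CPM in cholesterol samples 1, 2 and 3. Control sample 3 stood above the other 5 samples, the groups overlapped, and the log2 fold change of −0.15 (SE 0.12) was −0.01 without that sample.

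Arpc2 and Arpc4 encode the subunits that form the backbone of the complex and contact the mother filament. Arpc2 was measured at 115, 107 and 127 CPM in control samples 1, 2 and 3 and at 108, 104 and 105 CPM in cholesterol samples 1, 2 and 3. It was lower in each pair with overlapping groups, and its log2 fold change of −0.14 (SE 0.08) was −0.07 without control sample 3. Arpc4 was measured at 93.1, 89.1 and 89.9 CPM in control samples 1, 2 and 3 and at 91.4, 93.0 and 87.5 CPM in cholesterol samples 1, 2 and 3. The means were 90.7 ± 2.10 and 90.6 ± 2.86 CPM (SD, n = 3 each). Its estimated count was a whole number in 1 of 6 samples, so some of its reads were divided with other loci and its values are less certain. Arpc3 was measured at 186, 168 and 176 CPM in control samples 1, 2 and 3 and at 185, 171 and 161 CPM in cholesterol samples 1, 2 and 3. The groups overlapped, with a log2 fold change of −0.04 (SE 0.08).

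Was was measured at 17.8, 17.4 and 20.3 CPM in control samples 1, 2 and 3 and at 14.8, 16.1 and 15.03 CPM in cholesterol samples 1, 2 and 3. All 3 cholesterol samples lay below all 3 controls. The mean was 18.5 ± 1.57 CPM in control and 15.3 ± 0.701 CPM in cholesterol samples (SD, n = 3 each), a difference of −17.3% and a log2 fold change of −0.27 (SE 0.10). Within pairs 1, 2 and 3 the log2 difference was −0.27, −0.11 and −0.43. Its estimated count was a whole number in none of the 6 samples, so its reads were partly divided with other loci. Wasl, which encodes the broadly expressed relative N-WASP, was at a similar level per length (7.69 FPKM), and the share of Was in the summed FPKM of both was 56.1%, 51.1% and 55.1% in control samples 1, 2 and 3 and 49.5%, 48.7% and 44.5% in cholesterol samples 1, 2 and 3. These shares did not overlap between the groups.

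Markers of other blood cells and of erythroid cells were mostly lower with cholesterol, as Arpc1b and Was were. With the replicate block, 9 of the 12 neutrophil markers, 6 of 11 macrophage markers and 3 of 3 tested mast cell markers were called lower, where 5.20% of all genes were, and 1 macrophage marker was called higher. Of the 12 erythroid markers, 11 had a lower mean, 10 were lower in all 3 pairs, as 20.1% of all genes were, and 3 were called lower, with a median log2 fold change of −0.08. Among controls, neutrophil markers were at 78.1 CPM in sample 1 and at 759 CPM in sample 3, and in the same samples Arpc1b was at 41.0 and 44.1 CPM and Was at 17.8 and 20.3 CPM. In cholesterol sample 3 these values were 316 CPM for the neutrophil markers, 21.7 CPM for Arpc1b and 15.03 CPM for Was. The part of other blood cells in the differences of Arpc1b and Was was not tested. Megakaryocyte markers summed to 85.1 to 106 CPM in control and 81.5 to 91.9 CPM in cholesterol samples, and of these 9 genes 2 were lower in all pairs and 1 was called lower. The lymphoid genes in the table summed to at most 5.55 CPM in control and 1.79 CPM in cholesterol samples. Hepatocyte markers summed to 121 to 354 CPM in control and 83.7 to 296 CPM in cholesterol samples.

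**Figure D4:**
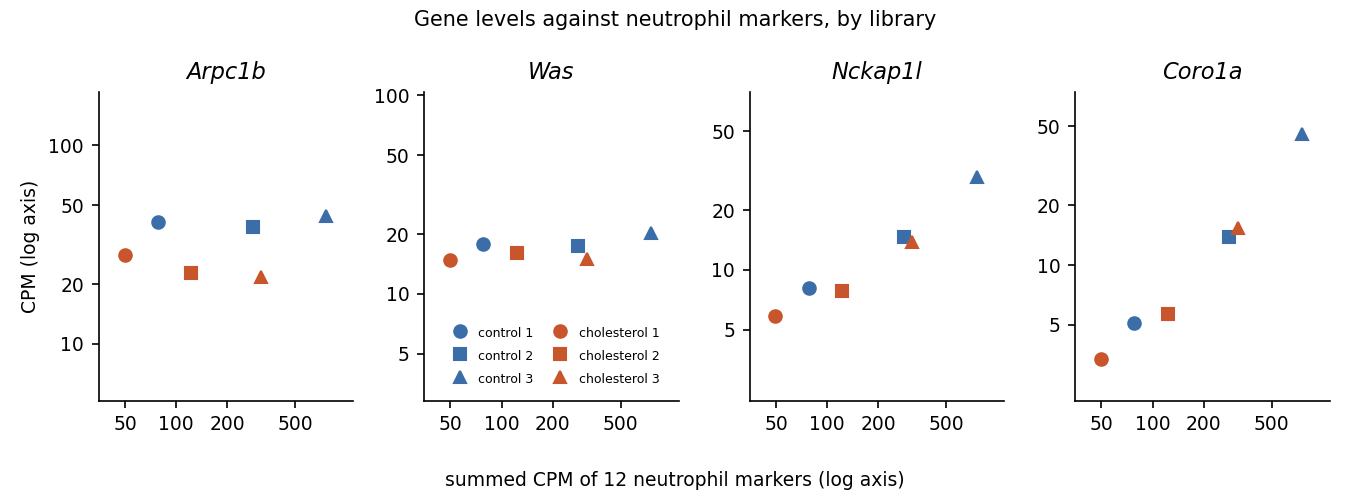
CPM of Arpc1b, Was, Nckap1l and Coro1a (log axis) against the summed CPM of 12 neutrophil markers (log axis), with 1 point per sample, control in blue and cholesterol in orange. Neutrophil markers range from 49.7 to 759 CPM, Arpc1b from 21.7 to 44.1 CPM, Was from 14.8 to 20.3 CPM, Nckap1l from 5.87 to 29.3 CPM and Coro1a from 3.35 to 45.9 CPM.

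Between replicate numbers, 46.3% of all genes tested differed in the edgeR quasi-likelihood test of the number, and 2 of the 10 did, Actr3 and Arpc5l. Levels along the numbers were part of the rule that chose the 10, so nothing is read from this count. The log2 difference of number 3 from number 1 was 0.28 for Actr3 and −0.18 for Arpc5l, which were the extremes of the set. It was −0.11 for Arpc1b and 0.11 for Was. Among the 45 pairs of the 10 genes, the Pearson correlation of log2 CPM over the 6 samples ranged from −0.78 for Arpc5l with Actr3 to 0.92 for Arpc5 with Was, and 31 were positive. The 5 genes outside all lists whose levels were most like the mean profile of the 10 over these samples were Tspan18 (r = 0.99), Mmd (r = 0.99), Hsp90b1 (r = 0.99), Ifi30 (r = 0.98) and Hadha (r = 0.97). Their groups did not overlap, all being lower with cholesterol, and the values are descriptions over 6 samples of 2 groups. Hsp90b1, which encodes a chaperone of the endoplasmic reticulum, was at 225 to 243 CPM in control and 199 to 216 CPM in cholesterol samples.

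Other genes of actin assembly were taken by function in 7 lists with 76 genes, of which 68 were tested. The lists were drawn up with earlier results of these data known, and the block was an alternative to the planned design. In the edgeR quasi-likelihood test without the block, 0 of the 68 passed an adjusted p of 0.05, 4 had an unadjusted p below 0.05 (Jmy, Fnbp1, Wipf1 and Rac2), where 2.63% of all genes did, and DESeq2 called 0. With the replicate block, 16 of 68 (23.5%) were called lower, where 5.20% of all genes were, and 0 were called higher. This count was 15, 7 and 16 with both samples numbered 1, 2 and 3 left out in turn. In these fits, 703 of 11496, 229 of 11492 and 516 of 11128 genes tested were called lower. The median log2 fold change of the 68 was −0.13, against 0.01 over all genes. The adjusted p-values below are from this edgeR test with the block and Benjamini-Hochberg adjustment over all 11277 genes. Some of the genes below also had estimated counts that were not whole, among them Rac2, Fnbp1, Jmy, Actb, Actg1 and Cap1. Some of their reads were thus divided with other loci.

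Of the WASP partners and upstream GTPases, 4 of 12 tested were called lower. Wipf1, which encodes the WASP-binding protein WIP, was at 15.2, 16.1 and 19.6 CPM in control samples 1, 2 and 3 and at 13.4, 13.6 and 13.5 CPM in cholesterol samples 1, 2 and 3. It fell without overlap of the groups (log2 fold change −0.33, SE 0.09, adjusted p = 0.0293). Rac2, a GTPase of blood cells, fell from 188 ± 8.50 to 158 ± 17.6 CPM (SD, n = 3 each), also without overlap (log2 fold change −0.25, SE 0.05, edgeR adjusted p = 0.0024). Fnbp1, which encodes a membrane-curving F-BAR protein that binds WASP proteins, fell from 21.0 ± 1.55 to 17.3 ± 1.13 CPM (SD, n = 3 each) without overlap (log2 fold change −0.28, SE 0.08, edgeR adjusted p = 0.0332). The fourth called gene, Pstpip1, named after its values were seen, was at most at 6.49 CPM, in control sample 3. Of the 5 other nucleation-promoting factors tested, 0 were called. Jmy was at 53.4 to 61.8 CPM in control and 64.4 to 70.2 CPM in cholesterol samples, with a log2 fold change of 0.20 (SE 0.06), and Wasl and Whamm had log2 fold changes of 0.11 (SE 0.06 and 0.05).

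Of the 8 genes of the WAVE regulatory complex, 2 were called lower. Nckap1l, which encodes the blood cell subunit HEM1, was at 8.14, 14.7 and 29.3 CPM in control samples 1, 2 and 3 and at 5.87, 7.805 and 13.8 CPM in cholesterol samples 1, 2 and 3. The groups overlapped, but it was lower in each pair (log2 fold change −0.88, SE 0.11, edgeR adjusted p = 7.9e-05). Its broadly expressed relative Nckap1 was at 28.2 to 34.1 CPM in control and 30.9 to 35.2 CPM in cholesterol samples, with a log2 fold change of 0.08 (SE 0.06). Cyfip2 was the other called gene, at 7.43 to 14.95 CPM in control and 5.87 to 8.43 CPM in cholesterol samples (log2 fold change −0.65, SE 0.12, edgeR adjusted p = 0.0017). None of the 4 genes of the WASH complex was called, with log2 fold changes of −0.15 (SE 0.07) for Washc2, 0.08 (SE 0.10) for Washc3 and −0.01 (SE 0.06) for Washc5.

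Of the 10 tested genes that stabilise, remove or inhibit branches, 4 were called lower. Hcls1, the blood cell relative of cortactin, which stabilises branches, was at 4.297, 7.53 and 16.9 CPM in control samples 1, 2 and 3 and at 2.42, 4.74 and 7.21 CPM in cholesterol samples 1, 2 and 3 (log2 fold change −0.95, SE 0.14, edgeR adjusted p = 0.00021). Coro1a, a coronin of blood cells, was at 5.11, 13.9 and 45.9 CPM in control samples 1, 2 and 3 and at 3.35, 5.68 and 15.4 CPM in cholesterol samples 1, 2 and 3 (log2 fold change −1.32, SE 0.15, edgeR adjusted p = 0.00099). Gmfg, a debranching factor, was at most at 5.97 CPM (log2 fold change −1.41, SE 0.27, edgeR adjusted p = 0.0031). These genes were higher in samples numbered 3 than in those numbered 1 of the same group, as the neutrophil markers were, and the log2 difference of number 3 from number 1 was 1.81 for Hcls1, 2.79 for Coro1a, 2.22 for Gmfg and 1.58 for Nckap1l. Of the genes called in the other lists it was 3.54 for Pstpip1, 1.25 for Twf2 and 0.79 for Cyfip2, and between −0.22 (Rac2) and 0.42 (Actg1) for the other 8. The part of the other blood cells in the differences of these genes was not tested. Coro1c, the remaining called gene and also named after its values were seen, differed the other way between numbers (−0.62), with a log2 fold change of −0.29 (SE 0.05).

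Of the 16 tested genes of actin and filament turnover, 6 were called lower. Actb, which encodes β-actin, was at 1673, 1578 and 1849 CPM in control samples 1, 2 and 3 and at 1504, 1507 and 1566 CPM in cholesterol samples 1, 2 and 3, and it fell without overlap of the groups (log2 fold change −0.15, SE 0.04, edgeR adjusted p = 0.0286). Wdr1, which aids cofilin in taking filaments apart, and Capza2, which encodes a subunit of the capping protein, were lower in each pair with overlapping groups. Wdr1 was at 121 to 148 CPM in control and 110.4 to 128 CPM in cholesterol samples, and Capza2 at 42.1 to 51.5 and 37.2 to 42.7 CPM. They fell with log2 fold changes of −0.20 (SE 0.05, edgeR adjusted p = 0.0090) and −0.21 (SE 0.06, edgeR adjusted p = 0.0274). The other 3, named after their values were seen, were Actg1, Cap1 and Twf2. Of the 13 formins and other linear nucleators tested, which build unbranched filaments, 0 were called, although their median log2 fold change was −0.30. Those at the highest levels differed little. The log2 fold change was −0.09 for Diaph3, −0.06 for Daam1, −0.02 for Diaph1 and 0.02 for Spire1. Their control means were 167, 170, 74.0 and 276 CPM. Fmnl1, a formin of blood cells, was at 4.25 to 24.4 CPM in control and 3.41 to 7.36 CPM in cholesterol samples, Fmnl3 at 2.27 to 3.997 and 1.68 to 2.56 CPM, and Inf2 at 18.1 to 19.1 and 14.6 to 18.4 CPM.

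**Figure D5:**
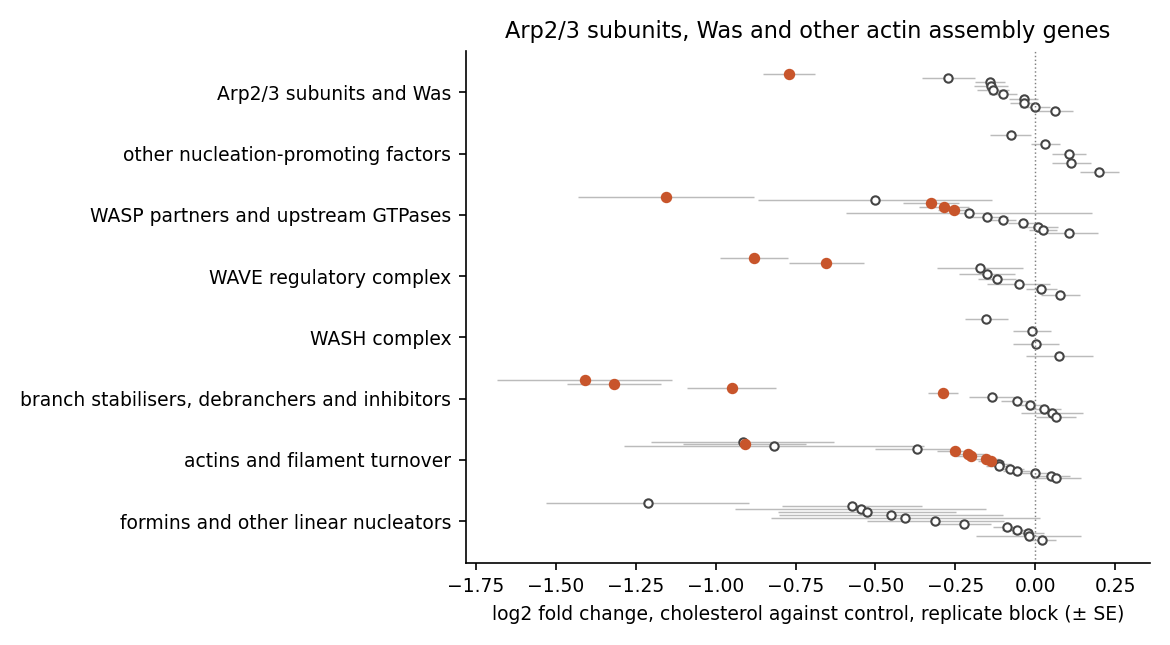
Log2 fold change (cholesterol against control, edgeR fit with the replicate block) of the 10 genes and of 68 other genes of actin assembly, with 1 point per gene and bars for the SE. Filled points passed an adjusted p of 0.05, which were 1 of the 10 (Arpc1b, −0.77) and 16 of the 68, all lower.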

How the data were processed

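RNA-seq was analysed for 3 control and 3 cholesterol samples, grouped by the treatment label, with polyadenylated RNA and single-end reads of 50 bases per the labels. The authors deposited estimated counts per gene, of which 27.9% to 29.5% per sample were not whole, and a table of normalized values with no stated unit. The deposited normalized values were taken as FPKM, since in 6115 genes above 5 in all samples the length implied by count and value had a median coefficient of variation of 0.280% over samples. The submitters' processing notes name HISAT2 2.0.4, Bowtie2 2.2.5, RSEM 1.2.12, DESeq2 1.4.5 and the build GRCm38.p6. The handling of strand is not given in the sources used here, so reads of overlapping genes cannot be told apart. No per-sample column was left unused.

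Counts were rounded and tested with edgeR 4.0.16 in R 4.3.3 (filterByExpr with a minimum of 10 counts and 15 in total, TMM factors, robust quasi-likelihood test, Benjamini-Hochberg adjustment over 11277 genes). Standard errors were derived from the F statistic, and CPM used TMM-scaled library sizes. The planned design had condition alone, and the replicate number was added as a block. Same-numbered samples deviated together from their group means (r = 0.73, 0.35 and 0.82 for numbers 1, 2 and 3), and the pairing rests on these numbers in the labels. No 2 samples of a group were copies (chi-square per degree of freedom at least 9.33). The floor of 3 counts covers counting error only. Alternatives were DESeq2 1.42.0, RLE factors, 2 other filters, limma 3.58.1 on log2(FPKM + 1) and log2(FPKM + 0.1), each sample left out, and, chosen after seeing the data, the block with both samples of a number left out and group overlap in FPKM. The code was tested on simulated counts.

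The 10 genes, the lists of actin and cell type genes and the motifs were chosen with earlier results of these data known. Genes named outside the 10 were Actr3b, the 3 with the smallest p without the block in each list, and the 5 most like the mean profile by Pearson correlation (mean of at least 1 CPM). Pstpip1, Coro1c, Actg1, Cap1, Twf2, Diaph3, Daam1, Diaph1 and Spire1, outside this rule, were named after their values were seen. Promoters came from RefSeq (GRCm38.p6).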

Additional observations from a re-analysis of the deposited data

How the results depend on the processing

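The fits differed mainly in the number of genes called. Without the block, edgeR called 1 gene higher and 0 lower (297 at an unadjusted p below 0.05) and DESeq2 called 3 higher and 28 lower, while with the replicate block edgeR called 186 higher and 586 lower. With single samples left out, the fit without the block called 0 to 7 genes lower, 7 without control sample 3 and 1 without cholesterol sample 3. With both samples numbered 1, 2 or 3 left out in turn, an alternative chosen after seeing the data, the fit with the block called 118, 67 and 210 genes higher and 703, 229 and 516 lower. These fits tested 11496, 11492 and 11128 genes. Among the 10 genes, Arpc1b was the 1 gene called lower with the block, with DESeq2 and in each of the 3 fits with a number left out. Its log2 fold change lay between −0.89 and −0.65 over the 16 alternatives. The other actin assembly genes called lower were 0 without the block and with DESeq2, 16 with the block, and 15, 7 and 16 with a number left out. The median log2 fold change of the 10 genes, −0.12, lay between −0.12 and −0.075 with single samples left out, the latter without control sample 3, and was −0.067 in the block fit without both samples numbered 3. Actr2, Actr3, Arpc1b, Arpc2, Arpc5 and Was were negative in all 16 alternatives, Arpc1a in 14, Arpc3 in 13, Arpc4 in 9 and Arpc5l in 1. The block changed no other call among the 10 genes. Groups of 3 samples limit the precision of differences near 10%, and Was rested on 294 to 391 counts per sample.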
